A study of Mus musculus with 36 samples.

Results

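Bile acids are made in the hepatocyte from cholesterol by a chain of hydroxylases, reductases, side-chain enzymes and conjugating enzymes. The 10 members described here are Cyp7a1, Cyp8b1, Cyp7b1, Cyp27a1, Cyp39a1, Akr1c6, Akr1d1, Amacr, Baat and Slc27a5. They were chosen by name, as a list of enzymes of this synthesis, from the 21889 gene symbols of the table. All 10 were in the table, all 10 were tested, and none had a value of 0 FPKM in any mouse.

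Messenger RNA was measured by RNA sequencing in whole liver of C57BL/6J mice at 12 ages, to follow its abundance through development. The ages were GD17.5 (GD for gestational day), Days 0, 1, 3 and 5, then Days 10, 15, 20 and 25, and last Days 30, 45 and 60 after birth, with 3 mice at each age and 36 mice in all. The mice were male and came from several litters, those kept past weaning were weaned at 21 days, and adults ate chow. The Day 0 mice had not yet fed, and from Day 3 on the time of collection was the same at every age.

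In the classic pathway Cyp7a1 makes the first and rate-limiting hydroxylation of cholesterol, and Cyp8b1 adds the hydroxyl group that directs synthesis towards cholic acid. In the alternative pathway Cyp27a1 hydroxylates the sterol side chain in mitochondria and Cyp7b1 hydroxylates the resulting oxysterol. Cyp39a1 acts on an oxysterol made mainly in brain by Cyp46a1. Akr1d1 reduces the steroid ring double bond, and Akr1c6 is an aldo-keto reductase listed for the ring reduction that follows. Amacr inverts the side-chain configuration, Slc27a5 joins bile acids to coenzyme A, and Baat joins them to taurine or glycine. Bile acids act back on synthesis through the receptor Nr1h4 and through Nr0b2 in the liver, and through an intestinal growth factor that binds Fgfr4 and Klb.

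The value for each gene and mouse was in FPKM, which divides by transcript length, so that levels of different genes can be set side by side. Summed FPKM ran from 353712 in Day 25 mouse 1 to 450597 in Day 3 mouse 2, and the lowest Pearson r between mice of an age, over the tested genes, was 0.952. Read counts were not part of the table. The steps between low values of 134 genes gave an estimate of 83.6 M fragments (M for mega) per library, with quartiles of 77.4 M and 89.3 M over those genes. With the depth of each library set from it, at 0.887 to 1.2 times that value, the lowest value of any member, 0.0722 FPKM for Cyp7b1 in GD17.5 mouse 1, stands for about 11.6 fragments, with a sampling error of 29.4%. The lowest value of Cyp7a1, 0.103 FPKM in GD17.5 mouse 3, stands for about 33.7 fragments, with a sampling error of 17.2%.

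Several libraries stood apart. GD17.5 mouse 2 held 3.27 FPKM of Xist, against 0.109 FPKM or less in the other 35 mice, while RNA of Y-linked genes was present in all 36. Pancreatic RNA, as the sum of 9 exocrine genes, reached 21894 FPKM in Day 60 mouse 1. The same sum was 7663 FPKM in Day 20 mouse 2, 5254 in Day 0 mouse 3, 5207 in Day 15 mouse 3 and 5147 in Day 45 mouse 1, and the next highest was 1328 in Day 10 mouse 1. Muscle RNA summed to 1153 FPKM in Day 0 mouse 1, of which Acta1 made 636, and to 81.5 FPKM in Day 10 mouse 1. Each mouse was also set against the mean of the other two of its age, a step chosen after the values were seen. In Day 30 mouse 1 688 tested genes were more than 1 log2 unit below the others and 41 above, 729 in all, the most of any mouse, and the next were Day 0 mouse 1 with 300 and Day 10 mouse 1 with 276, of which 237 were above. Without the 5 pancreas libraries, 12 of the 119 member calls described next were lost.

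Marker sums of cell types differed widely between ages. The sum of 8 hepatocyte markers was 11506, 12431 and 12929 FPKM in the 3 mice at GD17.5, and 80253, 74251 and 69175 at Day 0. Each Day 0 mouse was far above each GD17.5 mouse. The sum of 13 red cell markers was 142346, 175232 and 196291 FPKM at GD17.5, 72681, 84669 and 80674 at Day 0, and 790, 689 and 752 at Day 60. Here each GD17.5 mouse was above each Day 0 mouse, and each Day 0 mouse above each Day 60 mouse. The sum of 8 leukocyte markers was 479, 716 and 562 FPKM at GD17.5 and 31.8, 47 and 41.8 at Day 60. The sum of 8 endothelial and stellate markers was 98.3, 74.5 and 73.1 FPKM at GD17.5 and 29.6, 28.8 and 30 at Day 60, and that of 5 bile duct markers was 5.22, 10.2 and 9.99 and then 9.17, 6.34 and 4.48. The leukocyte and the endothelial and stellate sums did not overlap between those ages, and the bile duct sums did. Single markers did not all follow their sum. Mpo, Elane and Lyz2 made most of the leukocyte sum at GD17.5, while Clec4f of the same list went from 1.76, 4.06 and 3.7 FPKM at GD17.5 to 18.2, 27.5 and 21.6 at Day 60. Col1a1 and Col3a1 made most of the endothelial and stellate sum at GD17.5, while Lrat went from 0.466, 0.309 and 0.342 FPKM to 0.62, 1.59 and 0.798, and Kdr overlapped between the 2 ages. The hepatocyte sum was 114591, 121895 and 117124 FPKM at Day 10 and 49144, 49986 and 59500 at Day 60. Between those ages the mean of Ahsg went from 45513 to 5785 FPKM, that of Apoa1 from 20797 to 6300 and that of Ttr from 10342 to 4564. That of Alb went from 34354 to 29902, that of Serpina1a from 3069 to 3301 and that of Apob from 41.7 to 50. The fall of the sum was thus largely that of Ahsg and Apoa1. These markers were later used for scaling, and the weight of each of them in it was not tested. In bulk liver, fewer cells of a type and less RNA per cell cannot be told apart, and the share of these shifts in any member's result was not tested.

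**Figure D1:**
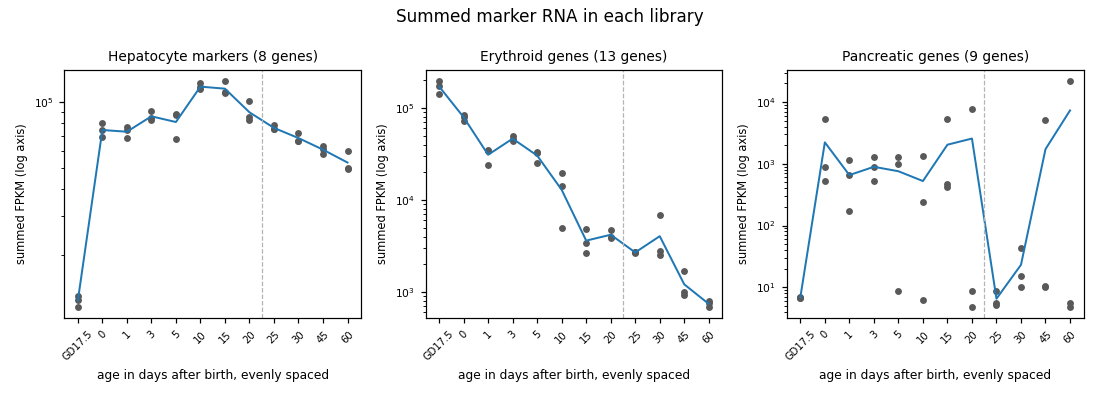
Summed FPKM (log axis) of the marker lists against age in days after birth, evenly spaced, with points for single mice, lines for means and a dashed line for the interval that holds weaning. The hepatocyte sum is lowest at GD17.5 (11506 to 12929 FPKM), and the red cell sum is 142346 FPKM or more at GD17.5 and 790 FPKM or less at Day 60.

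Set against Day 60, the enzymes were mostly lower in young liver, with 9 lower at GD17.5 and 3 at Day 20. Cyp39a1 was the main exception, called higher at 7 ages between Day 0 and Day 25 but not at GD17.5 or Day 10. At Day 10 Amacr was called higher, and the settings that end this call are given below. The counts that follow are of limma calls at an adjusted p under 0.05, each beside the share of all 11149 tested genes called in the same direction.

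At GD17.5, 9 members were lower than at Day 60, against 18.6% of tested genes, with a median member difference of -4.69 log2 units against 0.56 for all genes. At Day 0, 9 were lower, against 20.3%, and 1 was higher, against 43.6%, and the medians were -2.55 and 0.25. At Day 1, 6 were lower, against 11.7%, and 1 higher, against 53.4%, with medians of -1.66 and 0.47. There 9 were lower under upper quartile and 8 under hepatocyte scaling. At Day 3, 8 were lower, against 10.3%, and 1 higher, against 55.7%, with medians of -1.49 and 0.51. By Day 5 there were 7 lower, against 8.50%, and 1 higher, against 56.9%, with medians of -0.89 and 0.53, while without Day 60 mouse 1 or mouse 2, and with Dunnett's test, 4 were lower. Upper quartile scaling gave 9 lower and 0 higher there, and scaling outside the red cell list 5 lower and 2 higher. By Day 10 there were 6 lower, against 10.6%, and 1 higher, against 35.3%, with medians of -0.85 and 0.22. Hepatocyte scaling gave 9 lower and 0 higher at Day 10.

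At Day 15 the lower members numbered 5, against 8.95% of tested genes, and the higher 1, against 18.4%, with medians of -0.24 and 0.10. At Day 20 they numbered 3, against 6.99%, and 1, against 8.93%, with medians of 0.12 and 0.02. Day 25 had 1 lower member, Cyp7b1, against 3.24%, and 1 higher, Cyp39a1, against 4.18%, with medians of -0.33 and -0.02. Hepatocyte scaling gave 7 lower at Day 15, 4 at Day 20 and 2 at Day 25. Day 30 had 2 lower members, Cyp7a1 and Cyp8b1, against 1.79%, with medians of -0.37 and -0.08. That count was 0 without Day 30 mouse 1 or Day 60 mouse 2, and 1 without Day 30 mouse 2 or Day 60 mouse 1, without the filter, under upper quartile scaling and without the pancreas libraries. At Day 45 limma called 0 members lower, against 0.170% of tested genes, Dunnett's test called 0, and 0 had an unadjusted p under 0.05, while without Day 60 mouse 3 limma called Cyp7b1 lower (-1.25). The Day 45 medians were -0.11 and -0.12.

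The higher member was Cyp39a1 at each of these ages except Day 10, where it was Amacr. Differences were taken on log2 of FPKM plus 1, which makes them smaller than the ratio of FPKM for genes near or below 1 FPKM, such as Cyp7b1 and Cyp7a1 at GD17.5.

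From one age to the next, the enzymes were called most often at birth, where tested genes in all were also called most often, with 13.1% up and 41.4% down. As deposited and with all mice, later intervals each held 4 member calls or fewer. As TPM, 5 members rose from Day 0 to Day 1 and 5 from Day 10 to Day 15. From GD17.5 to Day 0, 8 members rose, against 13.1% of tested genes, with medians of 1.67 for members and -0.29 for all genes, while scaling to the hepatocyte markers left 4 rises and turned Amacr, Baat and Akr1d1 the other way. From Day 0 to Day 1, 3 rose, against 23.7%, and 1 fell, against 7.88%, with medians of 0.31 and 0.19. From Day 1 to Day 3, 2 rose, against 8.22%, with medians of -0.12 and 0.06, and 1 rose without Day 1 mouse 1 or mouse 3 or Day 3 mouse 2 or mouse 3, as TPM, and under upper quartile or hepatocyte scaling. The latter 2 scalings also called a fall there, that of Cyp39a1 (-0.85 and -0.97). From Day 3 to Day 5, 1 rose, against 1.09%, with medians of 0.34 and 0.01. There the count was 0 without Day 5 mouse 2, and 2 without Day 0 mouse 1 or Day 1 mouse 2 or mouse 3, as TPM, under upper quartile scaling, outside the red cell list and without the Xist and muscle libraries. Between Days 5 and 10, 1 rose, against 1.88%, and 1 fell, against 34.4%, with medians of -0.08 and -0.31. Upper quartile scaling gave 4 rises there, with Cyp27a1 (0.62), Akr1c6 (0.78) and Amacr (0.50) added, and did not call the fall, that of Baat (-0.06), while hepatocyte scaling gave 0 rises and called further falls, of Cyp8b1 (-0.92), Cyp39a1 (-0.90) and Amacr (-0.35).

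Between Days 10 and 15, 4 members rose, against 1.52% of tested genes, with medians of 0.50 and -0.12, and 2 without Day 10 mouse 2 or Day 15 mouse 2. As TPM and under upper quartile scaling 5 rose there, and outside the red cell list 1 member, Cyp8b1, was called as a fall. Between Days 15 and 20, 3 rose, against 0.834%, with medians of 0.29 and -0.09. Between Days 20 and 25, 2 rose, against 3.94%, and 1 fell, against 3.26%, with medians of -0.10 and -0.07, and Amacr was called as a further fall under some settings given below. Only 1 rose without Day 20 mouse 1 or mouse 2, Day 25 mouse 2 or mouse 3, or the pancreas libraries. Cyp7b1 was the 1 member that rose from Day 25 to Day 30, against 0.834%, with medians of -0.10 and -0.05. Cyp8b1 was the 1 that rose from Day 30 to Day 45, against 0.233%, with medians of 0.17 and -0.03. The count was 0 without mouse 1 or mouse 2 of Day 30 or of Day 45 or without the pancreas libraries, and 2 without Day 45 mouse 3. From Day 45 to Day 60 limma called 0 rises, against 0.170%, 0 members had an unadjusted p under 0.05 in that direction, and the medians were 0.11 and 0.12. Without Day 60 mouse 3 limma called 1 rise, that of Cyp7b1 (1.25).

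Grouped into stages, more members were called higher than lower in each comparison. Among all genes more were called lower than higher as deposited, a split that hepatocyte scaling turned to 71.8% higher for Days 25 to 60 against Days 10 to 20. Days 25 to 60 held 5 members higher than Days 10 to 20, against 12.4% of tested genes, and 2 lower, against 44.9%, with medians of 0.29 and -0.19. Days 10 to 20 held 9 members higher than GD17.5 to Day 5, against 14.6%, while hepatocyte scaling turned Cyp8b1 the other way (-0.29). Cyp39a1, not called there (0.13), was called higher under upper quartile scaling (0.59) and lower under hepatocyte scaling (-0.57). In that comparison limma called 0 members lower, against 61.2%, 0 had an unadjusted p under 0.05 in that direction, and the medians were 1.24 and -0.35. Days 25 to 60 held 9 members higher than GD17.5 to Day 5, against 15.5%, and 1 lower, against 70.2%, with medians of 2.02 and -0.54.

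The 10 members together had a mean summed FPKM of 44.6 in the GD17.5 mice, 283 by Day 0, 601 by Day 5, 1074 by Day 20 and 1415 by Day 45. The highest mean of a member was that of Slc27a5 at GD17.5, Day 3 and Days 10 to 60, and that of Cyp8b1 at Days 0, 1 and 5. The lowest was that of Cyp7b1 up to Day 25 and that of Cyp7a1 from Day 30 on.

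**Figure D2:**
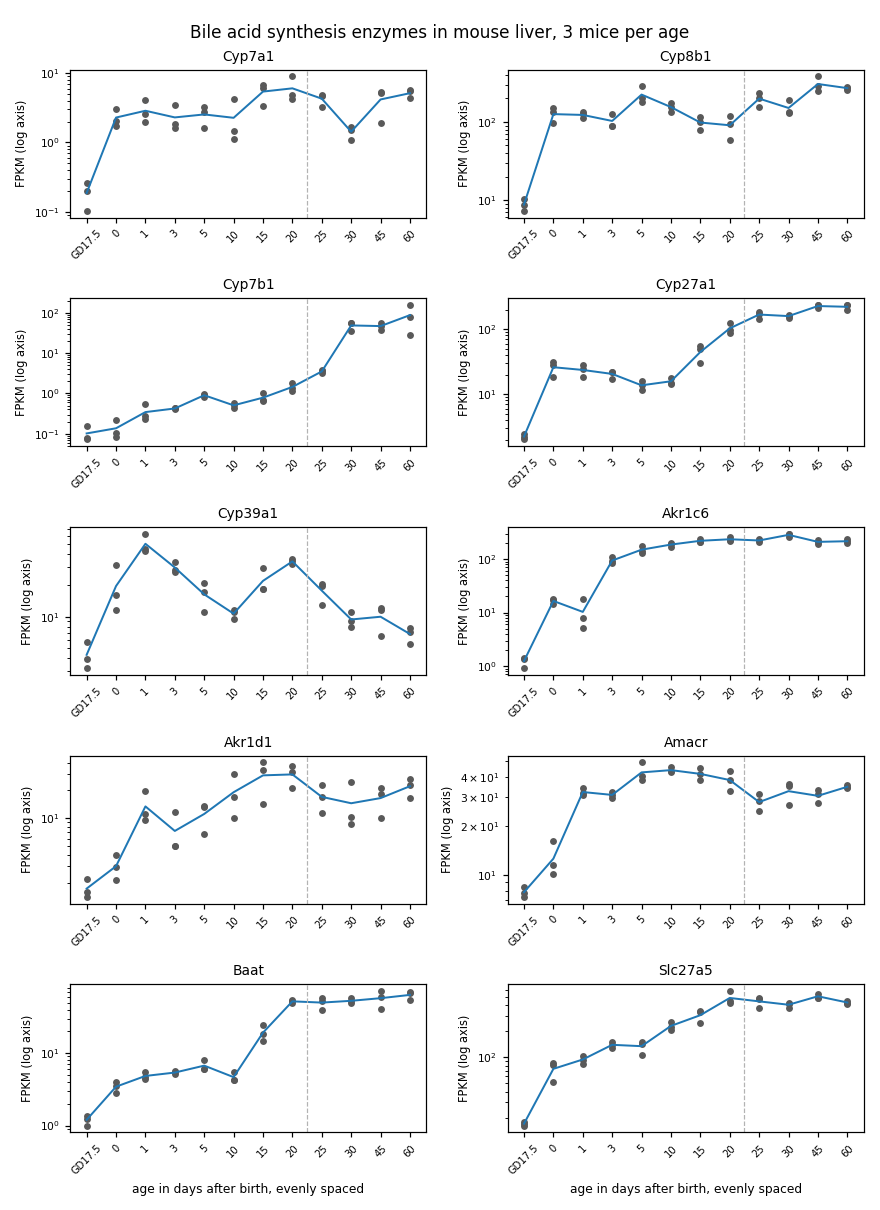
FPKM (log axis) of the 10 enzymes against age in days after birth, evenly spaced, with points for single mice, lines for means and a dashed line for the interval that holds weaning. Cyp7b1 goes from 3.64, 3.13 and 3.77 FPKM at Day 25 to 34.9, 54.9 and 55.8 at Day 30, while Cyp39a1 peaks at Day 1 with 62.7, 43 and 44.8.

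Cyp7a1, the rate-limiting enzyme of the classic pathway, stayed under 10 FPKM in every mouse. It was 0.257, 0.199 and 0.103 FPKM in the 3 mice at GD17.5, 3.09, 1.72 and 2.06 at Day 0, and 4.04, 2.57 and 2 at Day 1. At Day 10 it was 4.24, 1.13 and 1.45 FPKM, at Day 15 it was 6.18, 6.71 and 3.4, and at Day 20 it was 4.82, 9 and 4.31. It measured 4.69, 3.27 and 4.91 FPKM at Day 25, 1.09, 1.52 and 1.69 at Day 30, 5.23, 5.36 and 1.94 at Day 45, and 5.46, 5.66 and 4.34 at Day 60. The GD17.5 mice were below every later mouse. The Day 30 mice were below every mouse of Days 15, 20, 25, 45 and 60, while the Day 10 and Day 15 mice overlapped.

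Cyp7a1 rose from GD17.5 to Day 0 by 1.45 log2 units (SE 0.32, limma adjusted p = 3.77e-04). From Day 10 to Day 15 it rose by 1.05 (SE 0.32, limma adjusted p = 0.0258), a call lost without Day 10 mouse 2 (0.80) or mouse 3 (0.90), or without Day 15 mouse 1 (0.95) or mouse 2 (0.90). At Day 30 it was lower than at Day 60, with a difference of -1.34 (SE 0.32, limma adjusted p = 0.0117), a call lost without Day 30 mouse 1 (-1.23) or Day 60 mouse 2 (-1.28). The difference of -1.11 between Day 30 and Day 25 did not pass (limma adjusted p = 0.0737), and was called under upper quartile scaling (-1.16), with the replicate numbers as a block, and without Day 10 mouse 1 or Day 45 mouse 3 (-1.11 in each). The calls below Day 60 at Days 0, 3, 5 and 10 each rested on single mice, and Dunnett's test did not make those at Days 0, 3 and 5. The Day 0 call, -0.92, was lost without Day 0 mouse 2 (-0.79) and without the pancreas libraries (-0.84), and the Day 3 call, -0.93, without Day 3 mouse 3 (-0.79). The Day 5 call, -0.82, was lost without Day 5 mouse 2 (-0.62), Day 60 mouse 1 (-0.78) or Day 60 mouse 2 (-0.76), and the Day 10 call, -1.02, without Day 10 mouse 2 (-0.77). Its Day 1 difference from Day 60, -0.70, did not pass (limma adjusted p = 0.0545), and was called under upper quartile (-1.08) and hepatocyte scaling (-0.84), with the replicate block, without Day 1 mouse 1 (-0.90), and, at -0.70, without Day 3 mouse 1, Day 10 mouse 1 or mouse 2, Day 15 mouse 3, Day 20 mouse 2 or Day 45 mouse 3.

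Cyp8b1, which directs synthesis towards cholic acid, was among the most abundant members from birth. It was 8.55, 7.29 and 10.4 FPKM at GD17.5, 133, 97.3 and 149 at Day 0, and 89.7, 90 and 128 at Day 3. At Day 5 it was 201, 290 and 180 FPKM, at Day 15 it was 79.4, 115 and 101, and at Day 20 it was 59.5, 94.1 and 119. It measured 157, 204 and 237 FPKM at Day 25, 130, 134 and 191 at Day 30, 286, 383 and 251 at Day 45, and 283, 274 and 255 at Day 60. The GD17.5 mice were below all others, and the Day 25 mice were all above the Day 20 mice. By mean FPKM it ranked 3948 of all symbols in the GD17.5 mice, 327 by Day 0 and 157 by Day 45.

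Cyp8b1 rose at birth by 3.70 (SE 0.23, limma adjusted p = 2.40e-13), and from Day 20 to Day 25 by 1.16 (SE 0.23, limma adjusted p = 0.00106). Its rise from Day 3 to Day 5, 1.11 (SE 0.23, limma adjusted p = 0.00425), was lost without Day 5 mouse 2 (0.91). Its Day 5 difference from Day 60, -0.30, was not called, but was under upper quartile (-0.93) and hepatocyte scaling (-0.64). From Day 10 to Day 15 it differed by -0.66, not called as deposited. That difference was called as a fall outside the red cell list, with the replicate block, and without Day 20 mouse 1 or mouse 3 (-0.66 in each). From Day 30 to Day 45 it rose by 1.01 (SE 0.23, limma adjusted p = 0.0229). That call was lost without Day 30 mouse 1 (0.91) or mouse 2 (0.94), without Day 45 mouse 1 (1.05) or mouse 2 (0.84), and without the pancreas libraries (1.05). At Day 30 it was lower than at Day 60, with a difference of -0.85 (SE 0.23, limma adjusted p = 0.032). Leaving out Day 30 mouse 1 (-0.75) or mouse 2 (-0.78), or Day 60 mouse 1 (-0.82), mouse 2 (-0.84) or mouse 3 (-0.90), ended that call. Upper quartile scaling (-0.72), leaving out the pancreas libraries (-0.82) and testing without the filter ended it too. Days 10 to 20 differed from GD17.5 to Day 5 by 0.46 as deposited and, the other way, by -0.29 when scaled to the hepatocyte markers.

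Cyp27a1, the mitochondrial hydroxylase that starts the alternative pathway, had a step at birth and a long climb after Day 10. It was 2.2, 2.47 and 2.01 FPKM at GD17.5, 28.4, 18.3 and 31.3 at Day 0, and 14.9, 17.9 and 14.6 at Day 10. At Day 15 it was 30.6, 48.9 and 54.2 FPKM, at Day 20 it was 96.9, 85.9 and 126, and at Day 25 it was 141, 187 and 174. By Day 45 it had 213, 235 and 233 FPKM, and by Day 60 it had 232, 233 and 199. The mice of Days 10, 15, 20 and 25 did not overlap, each age lying above the one before, while Days 45 and 60 overlapped.

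The birth rise of Cyp27a1 was 3.03 (SE 0.20, limma adjusted p = 4.71e-13). It rose from Day 10 to Day 15 by 1.41 (SE 0.20, limma adjusted p = 7.83e-06) and from Day 15 to Day 20 by 1.21 (SE 0.20, limma adjusted p = 4.45e-04). The rise from Day 20 to Day 25, 0.70 (SE 0.20, limma adjusted p = 0.023), was lost without Day 20 mouse 1 (0.67) or mouse 2 (0.58), without Day 25 mouse 2 (0.62) or mouse 3 (0.67), and without the pancreas libraries (0.58). Its level over Days 25 to 60 was above that over Days 10 to 20 by 2.18 (SE 0.11, limma adjusted p = 2.08e-16).

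Cyp7b1, the oxysterol hydroxylase of the alternative pathway, was low before weaning, at 1.86 FPKM or less in every mouse up to Day 20. It was 0.0722, 0.0765 and 0.158 FPKM at GD17.5, 0.22, 0.0836 and 0.106 at Day 0, and 0.836, 0.975 and 0.897 at Day 5. At Day 20 it was 1.86, 1.38 and 1.12 FPKM, at Day 25 it was 3.64, 3.13 and 3.77, and at Day 30 it was 34.9, 54.9 and 55.8. It measured 36.8, 55.2 and 48.1 FPKM at Day 45 and 155, 79.1 and 27.7 at Day 60. All Day 30 mice were above all Day 25 mice, which were above all Day 20 mice. The Day 60 mice spanned the Day 30 and Day 45 mice, with mouse 1 and mouse 2 above and mouse 3 below all of them. By mean FPKM it ranked 13374 of all symbols at GD17.5, 4783 at Day 25, 813 at Day 30 and 529 at Day 60.

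Cyp7b1 rose from Day 25 to Day 30 by 3.43 (SE 0.31, limma adjusted p = 3.72e-09). Its difference from GD17.5 to Day 0, 0.04, did not pass (limma adjusted p = 0.92), nor did that from Day 20 to Day 25, 0.89 (limma adjusted p = 0.0787). The latter was called with a pseudocount of 0.1 (1.24), under upper quartile scaling (0.97), as TPM (1.12), and without Day 60 mouse 1 or mouse 3 (0.89 in each). Without Day 60 mouse 3 it was also called lower than at Day 60 at Day 30 (-1.21) and Day 45 (-1.25). The stage of Days 25 to 60 was above that of Days 10 to 20 by 3.97 (SE 0.17, limma adjusted p = 5.27e-18). Days 10 to 20 were higher than GD17.5 to Day 5 by 0.47, a call lost on scaling to the hepatocyte markers (0.25).

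Cyp39a1, the hydroxylase for the brain oxysterol, was the member with its peak in the newborn. It was 5.76, 3.2 and 3.93 FPKM at GD17.5, 31.1, 16.3 and 11.7 at Day 0, and 62.7, 43 and 44.8 at Day 1. At Day 10 it was 11.6, 9.41 and 11.2 FPKM, at Day 15 it was 18.5, 29.5 and 18.4, and at Day 20 it was 31.8, 36 and 34.1. It measured 19.7, 12.9 and 20.8 FPKM at Day 25, and 7.82, 7.17 and 5.43 at Day 60. The Day 1 mice were above every other mouse, and the Day 20 mice were above all mice of Days 10, 15, 25 and 60. The Day 60 and GD17.5 mice overlapped.

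Cyp39a1 rose at birth by 1.89 (SE 0.27, limma adjusted p = 2.15e-06) and from Day 0 to Day 1 by 1.39 (SE 0.27, limma adjusted p = 3.38e-04). Its differences from Day 1 to Day 3, -0.72, and from Day 3 to Day 5, -0.85, were not called as deposited with all mice. The first was called under upper quartile (-0.85) and hepatocyte scaling (-0.97). Both were called, at the same sizes, without Day 0 mouse 1 and without the Xist and muscle libraries. Its rise from Day 10 to Day 15, 0.95 (SE 0.27, limma adjusted p = 0.0196), was lost without Day 10 mouse 2 (0.87) or Day 15 mouse 2 (0.74). It fell from Day 20 to Day 25, with a difference of -0.92 (SE 0.27, limma adjusted p = 0.0355). That fall was lost without Day 20 mouse 1 (-0.96), mouse 2 (-0.88) or mouse 3 (-0.92) or Day 25 mouse 2 (-0.72), without the filter, as TPM, and on scaling to the hepatocyte markers (-0.71) or outside the red cell list (-0.90). Leaving out the pancreas libraries (-0.88) ended it too. It was higher than at Day 60 by 2.70 at Day 1 (SE 0.27, limma adjusted p = 9.85e-10) and by 2.17 at Day 20 (SE 0.27, limma adjusted p = 5.57e-07). At GD17.5 its difference from Day 60, -0.58, did not pass (limma adjusted p = 0.0579). It was called lower with a pseudocount of 0.1 (-0.68), under upper quartile scaling (-1.07), as TPM (-0.73) and with the replicate block, and higher under hepatocyte scaling (1.17). It was also called lower without GD17.5 mouse 1 (-0.77) or Day 60 mouse 3 (-0.71), and, at -0.58, without Day 0 mouse 1 or mouse 3, Day 5 mouse 2 or Day 45 mouse 3. At Day 5 the excess over Day 60, 1.13, was lost under upper quartile scaling (0.55). Days 25 to 60 were lower than GD17.5 to Day 5 (difference -0.78), a call lost under upper quartile scaling (-0.19).

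Akr1d1, which reduces the ring double bond, varied widely between mice of an age. It was 1.57, 2.19 and 1.4 FPKM at GD17.5, 3.96, 2.95 and 2.11 at Day 0, and 19.5, 11.2 and 9.52 at Day 1. At Day 10 it was 30.4, 10.1 and 16.9 FPKM, at Day 20 it was 31.4, 36.6 and 21.4, and at Day 30 it was 8.59, 24.5 and 10.4. It was 23.1, 26.8 and 16.6 FPKM at Day 60. The Day 1 mice were all above the Day 0 mice, while the mice of Days 10, 20, 30 and 60 overlapped. The spread was not that of Akr1d1 alone. Over the 36 mice, with each age mean taken off, r with Apob was 0.87 for Akr1d1, 0.75 for Cyp7a1 and 0.45 for Cyp39a1. The median over tested genes was 0.33, and the other members lay below it. They were Cyp7b1 (0.27), Baat (0.18), Amacr (0.10), Akr1c6 (-0.05), Cyp8b1 (-0.28), Slc27a5 (-0.28) and Cyp27a1 (-0.36). Apob was chosen after the values were seen.

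Akr1d1 rose from Day 0 to Day 1 by 1.81 (SE 0.42, limma adjusted p = 0.00175). The difference of 0.54 at birth did not pass (limma adjusted p = 0.276), and was -1.06 and called under hepatocyte scaling. Akr1d1 was not called below Day 60 at Day 1 (-0.72), but was under upper quartile (-1.18) and hepatocyte scaling (-0.90). Its Day 10 difference, -0.31, was called lower under hepatocyte scaling (-1.02). At Day 5 it was lower than at Day 60, with a difference of -0.97 (SE 0.42, limma adjusted p = 0.0428). That call was lost without Day 5 mouse 2 (-0.67), Day 60 mouse 1 (-0.93) or Day 60 mouse 2 (-0.82), without the filter, as TPM (-1.05), outside the red cell list (-0.90), without the pancreas libraries (-0.93) and with Dunnett's test. The stages of Days 25 to 60 and Days 10 to 20 differed by -0.51, which did not pass with all mice (limma adjusted p = 0.0559) and passed in 8 of the 36 fits that left out 1 mouse. Those were without Day 3 mouse 1, Day 10 mouse 2, Day 15 mouse 3, Day 20 mouse 3, Day 25 mouse 1, Day 30 mouse 2, Day 45 mouse 1 or Day 60 mouse 2, with differences from -0.51 to -0.65. It also passed with the replicate block and without the pancreas libraries (-0.66).

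Akr1c6, the aldo-keto reductase listed next, lies in a cluster of near copies, and how shared reads were divided among them is not given, so its level is uncertain. It was 0.913, 1.37 and 1.42 FPKM at GD17.5, between 14.3 and 17.8 at Day 0, and 7.86, 17.7 and 5.25 at Day 1. At Day 3 it was 83.3, 90.3 and 109 FPKM, at Day 30 it was 293, 298 and 260, and at Day 60 it was 214, 237 and 199. The Day 3 mice were above all Day 1 mice, and Day 1 mouse 2 lay within the Day 0 range while the others lay below it.

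The birth rise of Akr1c6 was 2.97 (SE 0.22, limma adjusted p = 8.30e-12), and its rise from Day 1 to Day 3 was 3.22 (SE 0.22, limma adjusted p = 2.56e-11). Between them it fell, with a difference of -0.79 (SE 0.22, limma adjusted p = 0.00761), a call lost without Day 1 mouse 3 (-0.44) and without the pancreas libraries (-0.74). At Day 5 it was lower than at Day 60, with a difference of -0.54 (SE 0.22, limma adjusted p = 0.031). That call was lost without Day 5 mouse 1 (-0.50) or mouse 3 (-0.45), Day 60 mouse 1 (-0.55) or mouse 2 (-0.48), outside the red cell list (-0.47), without the pancreas libraries (-0.55) and with Dunnett's test. Days 25 to 60 and Days 10 to 20 differed by 0.12, which did not pass (limma adjusted p = 0.388), and was called under upper quartile (0.26) and hepatocyte scaling (0.65). Its differences from Day 60 at Day 10, -0.21, and Day 15, 0.02, were not called as deposited. Hepatocyte scaling called it lower at both ages (-0.96 and -0.62).

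Amacr, the side-chain racemase, had the narrowest range, with a highest age mean 5.65 times the lowest. It was 7.7, 7.33 and 8.47 FPKM at GD17.5, 16.1, 10.2 and 11.5 at Day 0, and 34.1, 32.1 and 31 at Day 1. At Day 10 it was 43.4, 46.4 and 42.9 FPKM, at Day 25 it was 28.4, 24.7 and 31.3, and at Day 60 it was 34.7, 34.1 and 35.9. The mice of GD17.5, Day 0 and Day 1 did not overlap, and the Day 10 mice were above all mice of Days 25 and 60.

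Amacr rose at birth by 0.60 (SE 0.14, limma adjusted p = 6.61e-04) and from Day 0 to Day 1 by 1.32 (SE 0.14, limma adjusted p = 2.80e-08). The birth difference was 0.18 and not called outside the red cell list, and turned to -1.36 on scaling to the hepatocyte markers. Its call below Day 60 at GD17.5, -2.02, was also lost on scaling to the hepatocyte markers (-0.19). Upper quartile scaling called it lower than at Day 60 at Day 1 (-0.58), Day 3 (-0.77) and Day 5 (-0.34). Hepatocyte scaling called it lower at Day 3 (-0.59), Day 15 (-0.37) and Day 25 (-0.49). At Day 5 it was called higher outside the red cell list (0.34), and, at 0.28, without Day 0 mouse 1 and without the Xist and muscle libraries. Days 25 to 60 were lower than Days 10 to 20, with a difference of -0.38 (SE 0.07, limma adjusted p = 7.41e-05) as deposited, and differed by 0.13, the other way, on hepatocyte scaling. From Day 3 to Day 5 it differed by 0.44, which did not pass (limma adjusted p = 0.0842), and was called under upper quartile scaling (0.43), as TPM (0.54), outside the red cell list (0.48), without Day 0 mouse 1 and without the Xist and muscle libraries. Its difference from Day 20 to Day 25, -0.43, did not pass (limma adjusted p = 0.0534). It was called as a fall with the filter at 5 FPKM, without the trend, under upper quartile scaling (-0.40) and without the Xist and muscle libraries, and in 6 of the 36 fits that left out 1 mouse, at -0.43 without Day 0 mouse 1 or mouse 2, Day 5 mouse 2 or Day 30 mouse 1, -0.53 without Day 20 mouse 1 and -0.51 without Day 25 mouse 3. At Day 10 it was higher than at Day 60 by 0.33 (SE 0.14, limma adjusted p = 0.0494). That call was lost in 25 of 36 fits that left out 1 mouse, with differences from 0.30 without Day 10 mouse 2 to 0.35 without Day 60 mouse 3, with Dunnett's test, with a pseudocount of 0.1 (0.34), as TPM (0.32), under upper quartile scaling (0.16), with the replicate numbers as a block, without the pancreas libraries (0.33), and on scaling to the hepatocyte markers, where the difference was -0.40.

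Slc27a5, the coenzyme A ligase, was the most abundant member at most ages. It was 16.9, 16.2 and 17.9 FPKM at GD17.5, 81.5, 52.1 and 86.2 at Day 0, and 83.6, 104 and 93.9 at Day 1. At Day 5 it was 143, 151 and 107 FPKM, at Day 10 it was 226, 258 and 206, and at Day 15 it was 251, 338 and 329. It measured 426, 445 and 581 FPKM at Day 20 and 427, 447 and 414 at Day 60. The GD17.5 mice were below all others, the Day 10 mice above all Day 5 mice, and the Day 20 mice above all Day 15 mice, while Days 20 and 60 overlapped.

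Slc27a5 rose at birth by 2.01 (SE 0.16, limma adjusted p = 8.60e-11) and from Day 5 to Day 10 by 0.79 (SE 0.16, limma adjusted p = 4.39e-04), the latter lost on hepatocyte scaling (0.37). Its rise from Day 1 to Day 3, 0.56 (SE 0.16, limma adjusted p = 0.0242), was lost without Day 1 mouse 1 (0.48) or mouse 3 (0.57) or Day 3 mouse 2 (0.51) or mouse 3 (0.57), as TPM (0.45), and under upper quartile (0.42) and hepatocyte scaling (0.31). Its difference from Day 10 to Day 15, 0.40, was not called as deposited. It was called as a rise under upper quartile scaling (0.57), as TPM (0.44) and without Day 15 mouse 1 (0.54). The rise from Day 15 to Day 20, 0.66 (SE 0.16, limma adjusted p = 0.0276), was lost without Day 15 mouse 1 (0.52), Day 20 mouse 2 (0.71) or Day 20 mouse 3 (0.52), and without the pancreas libraries (0.77). At Day 15 it was lower than at Day 60, with a difference of -0.50 (SE 0.16, limma adjusted p = 0.0238), a call lost without Day 15 mouse 1 (-0.36), Day 60 mouse 1 (-0.50) or Day 60 mouse 2 (-0.47), and without the pancreas libraries (-0.56).

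Baat, the conjugating enzyme, climbed later than its partner ligase. It was 1, 1.34 and 1.25 FPKM at GD17.5, 2.78, 3.98 and 3.55 at Day 0, and 6.1, 6.05 and 8.03 at Day 5. At Day 10 it was 4.22, 4.29 and 5.46 FPKM, at Day 15 it was 14.9, 24.4 and 18.4, and at Day 20 it was 53.4, 49.1 and 53.1. It measured 69.4, 68.2 and 53.4 FPKM at Day 60. The mice of Days 10, 15 and 20 did not overlap, each age lying above the one before, while Days 20 and 60 overlapped at 53.4 FPKM.

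Baat rose at birth by 1.01 (SE 0.18, limma adjusted p = 3.17e-05), from Day 10 to Day 15 by 1.82 (SE 0.18, limma adjusted p = 1.94e-08) and from Day 15 to Day 20 by 1.41 (SE 0.18, limma adjusted p = 8.98e-06). Its fall from Day 5 to Day 10, -0.45 (SE 0.18, limma adjusted p = 0.0486), was lost in 25 of 36 fits that left out 1 mouse, with differences from -0.33 without Day 5 mouse 3 to -0.51 without Day 5 mouse 2, as TPM (-0.47), outside the red cell list (-0.48), without the filter, without the pancreas libraries (-0.45) and under upper quartile scaling (-0.06). Over Days 25 to 60 it was above its level over Days 10 to 20 by 1.63 (SE 0.10, limma adjusted p = 1.50e-14). Its Day 20 difference from Day 60, -0.28, was called lower under hepatocyte scaling (-0.68).

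Scaling the libraries to the hepatocyte markers changed the results at birth. Under it 4 of the 8 rises at birth were still called, those of Cyp7a1, Cyp8b1, Cyp27a1 and Akr1c6. The sizes printed above for these rises are as deposited, and their sizes under this scaling are not given here. Cyp39a1 (0.03) and Slc27a5 (-0.02) were then not called, and Amacr (-1.36) and Baat (-0.46) turned to falls.

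Scaling moved the median difference of all tested genes by -1.82 log2 units at birth and by 1.68 for GD17.5 against Day 60 with the hepatocyte markers. Upper quartile scaling moved it by -0.42 for GD17.5 against Day 60 and by 0.40 for Days 25 to 60 against GD17.5 to Day 5. Scaling outside the red cell list moved it by 0.47 for GD17.5 against Day 60 and by -0.38 at birth, and TPM by 0.13 at most. Of all genes called at GD17.5 against Day 60, 75.2% were higher, with 58.4% under upper quartile and 93.5% under hepatocyte scaling. Of those called at birth, 24.1% rose, with 43.5% under upper quartile and 2.1% under hepatocyte scaling.

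The order of ages by mean FPKM differed between members. Overlap here is that of the mice of 2 neighbours in the order, and ages further apart in a run of overlaps may be separate. Cyp7a1 ran from Day 20 down through Days 15, 60, 25, 45, 1, 5, 3, 0, 10 and 30 to GD17.5, and only GD17.5 was separate from its neighbour. Cyp8b1 ran from Day 45 through Days 60, 5, 25, 10, 30, 0, 1, 3, 15 and 20 to GD17.5, again with only GD17.5 separate. Cyp7b1 ran from Days 60, 30 and 45, which overlapped, down to a separate Day 25 and a separate Day 20, then to the overlapping Days 5 and 15, the overlapping Days 10, 3 and 1, and the overlapping Day 0 and GD17.5. Cyp27a1 ran from the overlapping Days 45 and 60 to the overlapping Days 25 and 30 and then to Day 20. Days 15, 0, 1, 3, 10 and 5 followed, each overlapping the next, with GD17.5 last and separate. Its Day 15 mice lay above those of Days 1, 3, 10 and 5. Cyp39a1 began with a separate Day 1 and ended with Day 60 and GD17.5, which overlapped. Akr1c6 began with a separate Day 30 and ended with Day 3, the overlapping Days 0 and 1, and GD17.5. Akr1d1 began with Day 20 and ran in overlap through Days 15, 60, 10, 25, 45, 30, 1, 5 and 3, with the overlapping Day 0 and GD17.5 apart at the end. Amacr began with Day 10 and ended with a separate Day 0 and a separate GD17.5. Baat began with Days 60, 45, 30, 20 and 25, each overlapping the next, and Slc27a5 with Days 45, 20, 25, 60 and 30, likewise, though Day 45 lay above Days 60 and 30, and both ended with a separate GD17.5.

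Over the other comparisons the share of all calls that were higher moved with scaling as follows, given as deposited and then as lowest and highest over the scalings. Against Day 60 it was 68.2%, 54.4% and 74.2% at Day 0, 82%, 62.5% and 84.5% at Day 1, 84.4%, 59.5% and 85.3% at Day 3, and 87%, 61.3% and 88.3% at Day 5. It was 76.8%, 26.7% and 78.5% at Day 10, 67.3%, 13% and 69.3% at Day 15, 56.1%, 13.9% and 67.7% at Day 20, and 56.3%, 22.4% and 76.9% at Day 25. It was 49.6%, 23.8% and 67.7% at Day 30 and 26.9%, 14.8% and 55% at Day 45. From Day 0 to Day 1 it was 75%, 55% and 83.2%, from Day 1 to Day 3 72.7%, 23.4% and 72.7%, from Day 3 to Day 5 33.9%, 32.1% and 60%, and from Day 5 to Day 10 5.19%, 1.04% and 44.7%. From Day 10 to Day 15 it was 12.6%, 12.6% and 28.6%, from Day 15 to Day 20 41.9%, 41.9% and 86.4%, from Day 20 to Day 25 54.7%, 51.9% and 81%, and from Day 25 to Day 30 50.8%, 37.9% and 63%. From Day 30 to Day 45 it was 22.6%, 19.2% and 38%, and from Day 45 to Day 60 73.1%, 45% and 85.2%. For Days 25 to 60 against Days 10 to 20 it was 21.7%, 21.7% and 71.8%, for Days 10 to 20 against GD17.5 to Day 5 19.3%, 5.74% and 47.5%, and for Days 25 to 60 against GD17.5 to Day 5 18.1%, 12.8% and 40.6%.

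Ratios of FPKM within a mouse set the branches side by side and were not tested. The ratio of Cyp8b1 to Cyp7a1 was 73.3, 178 and 55.4 in the Day 5 mice and 37.1, 156 and 91.9 in the Day 10 mice. It was 12.3, 10.5 and 27.5 at Day 20 and 119, 88.2 and 113 at Day 30. All Day 20 mice were below all mice of Days 5, 10 and 30, and the Day 30 mice overlapped those of Days 5 and 10. That of Cyp7a1 to Cyp27a1 was 0.198, 0.102 and 0.287 at Day 5 and 0.0073, 0.00938 and 0.0102 at Day 30, with all Day 30 mice below all Day 5 mice. The mean ratio of Cyp7b1 to Cyp27a1 was 0.0214 at Day 25 and 0.303 at Day 30. The mean ratio of Baat to Slc27a5 was 0.0206 at Day 10 and 0.148 at Day 60.

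**Figure D3:**
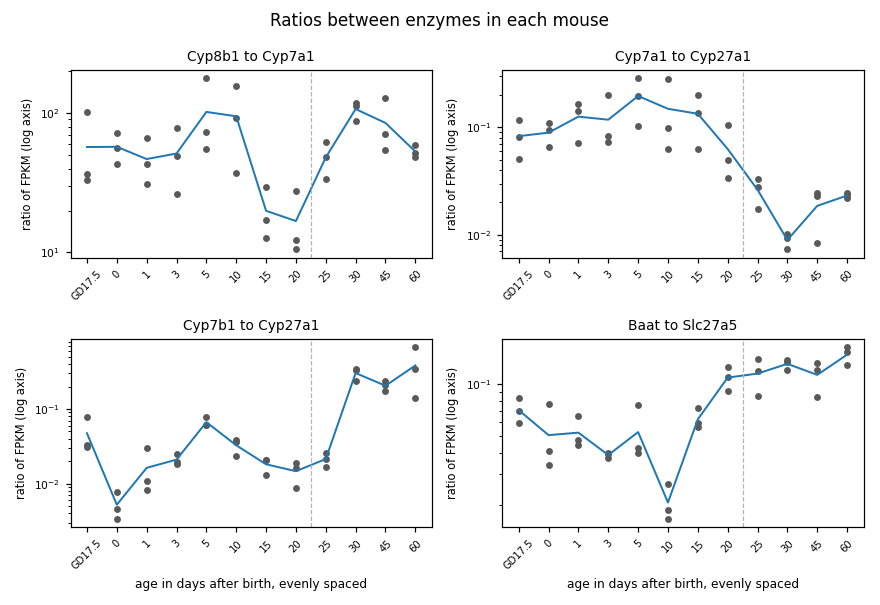
Ratios of FPKM between pairs of members (log axis, no unit) against age in days after birth, evenly spaced, with points for single mice, lines for means and a dashed line for the interval that holds weaning. Cyp8b1 over Cyp7a1 is 12.3, 10.5 and 27.5 at Day 20 and 119, 88.2 and 113 at Day 30.

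The rise of Cyp7b1 from Day 25 to Day 30 came with changes in genes known to differ between the sexes in mouse liver. Of 7 male-predominant genes 7 rose, against 0.834% of tested genes, with a median of 4.06. Of 6 tested female-predominant genes 6 fell, against 0.807% of tested genes, with a median of -4.02, and the median of all genes was -0.05. A1bg, 1 of those 6, passed the filter through Day 25 alone, with a mean of 39.8 FPKM there and 0.963 or less at other ages, so its fall follows from how it entered the test. Without it the median is that of Cyp2b9, -3.44. Elovl3 went from 2.37, 3.59 and 3.1 FPKM at Day 25 to 208, 126 and 234 at Day 30, and Sult2a1 from 180, 260 and 186 to 2.2, 0.819 and 2.92, with no overlap in either. Whether Cyp7b1 follows these genes was not tested.

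Of 10 clock genes tested, 7 fell from Day 20 to Day 25, against 3.26% of tested genes, with a median of -0.94 against -0.07 for all genes. Dbp went from 3.46, 8.81 and 16.1 FPKM to 0.585, 0.659 and 0.551, with all Day 25 mice below all Day 20 mice. The call of Cry1, -0.88, was lost without Day 20 mouse 1 (-0.76) or mouse 2 (-0.87) or Day 25 mouse 2 (-0.67) or mouse 3 (-0.90), without the filter, outside the red cell list (-0.86), under hepatocyte scaling (-0.71) and without the pancreas libraries (-0.87). The calls of Cry2 and Hlf were lost without single mice, Cry2 without Day 20 mouse 3 (-0.76) or Day 25 mouse 2 (-0.69) and Hlf without Day 25 mouse 2 (-0.80). The members' changes over this interval were not tested against them.

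Of 10 other enzymes of the synthesis, 8 were tested, Ch25h and Cyp46a1 being too low. At birth 3 rose, against 13.1% of tested genes, Hsd3b7 (1.73), Slc27a2 (1.08) and Cyp2c70 (3.24), and Acot8 fell (-0.50), against 41.4%. The median was 0.42 against -0.29 for all genes, and on hepatocyte scaling Hsd3b7 (-0.32) and Slc27a2 (-0.98) went the other way. The Acot8 call was lost without GD17.5 mouse 2 (-0.41) or mouse 3 (-0.43) or Day 0 mouse 1 (-0.39) or mouse 2 (-0.48), without the filter, under upper quartile scaling (-0.25) and without the Xist and muscle libraries (-0.30). From Day 0 to Day 1 4 rose, against 23.7%, with a median of 0.83 against 0.19. Cyp2c70 fell over that interval, against 7.88% of tested genes, with a difference of -3.45, from 130, 143 and 121 FPKM to 10.4, 18.5 and 6.84, and at Day 3 it was 92.1, 83.1 and 87.6 FPKM. Its Day 1 mice were below all mice of Days 0 and 3, over the same ages at which Akr1c6 fell and rose.

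Taurine for conjugation is made through Cdo1 and Csad, listed here with Fmo1. All 3 rose at birth, against 13.1% of tested genes, with a median of 1.49 against -0.29, while on hepatocyte scaling Cdo1 (-0.57) and Fmo1 (-1.02) went the other way. From Day 20 to Day 25 1 rose, against 3.94%, and 1 fell, against 3.26%, with a median of 0.04 against -0.07. Csad was 18.8, 17.3 and 22.9 FPKM at GD17.5, 132, 88.1 and 96.9 at Day 0, 5.54, 6.59 and 5.85 at Day 20, 20.2, 22.9 and 20.2 at Day 25, and 163, 174 and 188 at Day 60. The Day 20 mice were below all mice of these other ages. Csad rose at birth by 2.36, a rise lost on hepatocyte scaling (0.31), and from Day 20 to Day 25 by 1.66 (limma adjusted p = 8.07e-06). Cdo1 went from 685, 835 and 687 FPKM at Day 20 to 322, 388 and 343 at Day 25, with no overlap, and fell, with a difference of -1.06 (limma adjusted p = 0.00601).

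Regulators of the synthesis are described as single genes. At birth Nr1h4, Nr0b2, Hnf4a (0.81), Ppara (0.89) and Nr1i2 (0.97) rose, and Mafg (-0.88) fell. On hepatocyte scaling Nr1h4 (-0.49), Hnf4a (-1.26), Ppara (-0.97) and Nr1i2 (-0.89) went the other way. The Hnf4a call was lost without GD17.5 mouse 2 or mouse 3 (0.75 in each) or Day 0 mouse 1 (0.64). That of Ppara was lost without GD17.5 mouse 2 (0.69) or mouse 3 (0.90) or Day 0 mouse 1 (0.96), mouse 2 (0.84) or mouse 3 (0.87), without the filter, and as TPM (0.95). Outside the red cell list Hnf4a (0.35) and Ppara (0.51) were not called, nor were they without the Xist and muscle libraries, and Ppara (0.87) was not called without the pancreas libraries. The birth differences of Fgfr4 (-0.40), Klb (-0.28) and Nr5a2 (-0.58) were negative and not called. From Day 0 to Day 1 Nr1h4, Nr0b2, Nr1i2 (0.85), Klb (1.39) and Fgfr4 (0.60) rose, and the Fgfr4 call was lost without Day 0 mouse 2 (0.52) or Day 1 mouse 2 (0.49).

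Among them Nr1h4, the bile acid receptor, was 1.61, 2.12 and 2.58 FPKM at GD17.5, 7.64, 6.29 and 4.5 at Day 0, and 11, 11.2 and 13.4 at Day 1, with no overlap between these ages. It rose by 1.19 at birth as deposited, with -0.49 on hepatocyte scaling, and by 0.87 from Day 0 to Day 1. Nr0b2, which acts below it, was 0.17, 0.277 and 0.184 FPKM at GD17.5, 2.53, 1.68 and 3.02 at Day 0, and 6.4, 8 and 9.48 at Day 1, again with no overlap, and rose by 1.48 and 1.40.

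Over the 12 age means of log2 of FPKM plus 1, the 3 genes with the highest Pearson r to each member were found among 7860 tested genes whose means spanned at least 1. Those of Cyp7a1 were Amy1 (0.916), Cps1 (0.909) and Mat1a (0.886). Those of Cyp8b1 were Crp (0.950), Serping1 (0.933) and Fam63a (0.929). Cyp7b1 lay nearest Slco1a1 (0.995), Gm5631 (0.994) and Adh6-ps1 (0.991). Cyp27a1 lay nearest S100a1 (0.985), Oplah (0.983) and Aspg (0.977). The genes closest to Cyp39a1 were Por (0.870), B4galnt1 (0.859) and Pnpla2 (0.854). The genes closest to Akr1c6 were BC089597 (0.988), Aspdh (0.987) and Masp2 (0.983). Akr1d1 had Mccc2 (0.988), Abhd15 (0.988) and Amdhd1 (0.985), and Amacr had A2ld1 (0.987), Fam176a (0.986) and Ctso (0.979). Baat had Pafah2 (0.989), Cyp2a5 (0.979) and Rgl3 (0.977), and Slc27a5 had Aldh1l1 (0.993), Hsd11b1 (0.992) and Clu (0.992).

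Among the members, r over the same 12 means was highest between Cyp27a1 and Baat (0.96), followed by Akr1c6 and Slc27a5 (0.93) and by Baat and Slc27a5 (0.91). It was 0.27 between Cyp7a1 and Cyp7b1 and -0.46 between Cyp7b1 and Cyp39a1. Such an r over 12 points carries no test here.

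In the NCBI37/mm9 build Cyp7a1 (ENSMUSG00000028240.2) lay on chromosome 4 at 6192759 to 6202780 on the minus strand and Baat (ENSMUSG00000039653.3) on the same chromosome at 49502294 to 49519429 on the minus strand. Cyp8b1 (ENSMUSG00000050445.4) lay on chromosome 9 at 121823474 to 121825423 on the minus strand, with 1 exon, and Cyp7b1 (ENSMUSG00000039519.6) on chromosome 3 at 17971950 to 18143338 on the minus strand. Cyp27a1 (ENSMUSG00000026170.5) lay on chromosome 1 at 74760148 to 74784464 on the plus strand and Cyp39a1 (ENSMUSG00000023963.8) on chromosome 17 at 43804374 to 43888380 on the plus strand. Akr1c6 (ENSMUSG00000021210.9) lay on chromosome 13 at 4433552 to 4456776 and Akr1d1 (ENSMUSG00000038641.8) on chromosome 6 at 37480173 to 37518815, both on the plus strand. Amacr (ENSMUSG00000022244.6) lay on chromosome 15 at 10911511 to 10926379 on the plus strand and Slc27a5 (ENSMUSG00000030382.8) on chromosome 7 at 13573695 to 13583541 on the minus strand.

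Promoter sequence of 250 bases upstream of the start was found for 4 of the 10 members in RefSeq, on build GRCm38.p6, and Cyp7a1, Cyp7b1, Cyp39a1, Amacr, Baat and Slc27a5 were not in that table. Motifs were searched on both strands of 32851 promoters and are in capitals. CAAAGTCCA, or TGGACTTTG on the other strand, was in 0.384% of all promoters and lay 67 to 59 bases before the start of Cyp8b1, where TATAAA (on the other strand TTTATA, 12.4%) lay 31 to 26 before it. AGGTCA (on the other strand TGACCT, 14%) lay on the other strand of Akr1d1, 232 to 227 and 210 to 205 before the start, and TATAAA lay 164 to 159 before the start of Akr1c6. TCAAGGNCA (TGNCCTTGA, 1.39%) was in none of the 4. A match describes the sequence and no binding was measured. The promoter of Cyp8b1 is at chr9:121916306-121916555 on the minus strand and that of Cyp27a1, which held none of these motifs, at chr1:74713285-74713534 on the plus strand.
Cyp8b1: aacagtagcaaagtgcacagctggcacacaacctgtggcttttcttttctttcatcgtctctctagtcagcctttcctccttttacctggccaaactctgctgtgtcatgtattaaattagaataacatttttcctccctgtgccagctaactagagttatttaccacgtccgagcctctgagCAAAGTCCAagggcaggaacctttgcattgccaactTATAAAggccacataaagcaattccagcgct
Cyp27a1: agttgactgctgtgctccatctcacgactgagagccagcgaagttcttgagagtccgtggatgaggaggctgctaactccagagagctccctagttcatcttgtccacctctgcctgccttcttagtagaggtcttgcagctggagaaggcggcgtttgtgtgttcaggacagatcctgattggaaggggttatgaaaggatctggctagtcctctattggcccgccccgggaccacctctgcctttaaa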

How the data were processed

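The values are FPKM as deposited by the authors, whose notes name TopHat 1.2.0 and Cufflinks 1.0.3 on build NCBI37/mm9. The members and lists were chosen with earlier results of these data known. The unit of every test is the mouse. FPKM plus a pseudocount of 1 was taken to log2, and genes whose mean reached 1 FPKM at 1 age or more, 11149 in all, were tested. limma 3.58.1 in R 4.3.3 fitted 1 mean per age over all 36 mice, with eBayes and a trend, and contrasts for each age minus Day 60, each later minus earlier neighbouring age, and each later minus earlier stage (GD17.5 to Day 5, Days 10 to 20, Days 25 to 60). Adjusted p is Benjamini-Hochberg over the tested genes within a comparison, with a threshold of 0.05. The fit was tested on simulated data, with an outcome that is not given here.

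The genes named are all 10 members, for each member the 3 genes with the highest Pearson r over the 12 age means among tested genes whose means span at least 1, and genes of the lists (other enzymes, taurine, regulators, clock, male- and female-predominant, and cell and tissue markers), given as counts with values for those named, or for regulators as single genes.

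Alternatives changed 1 choice at a time: a pseudocount of 0.1, no filter, a filter of 5 FPKM, upper quartile scaling, TPM, scaling outside the red cell list, scaling to the hepatocyte markers, no trend of variance with the mean, replicate numbers as a block, Dunnett's test, and each mouse left out. Leaving out the 5 libraries with over 5000 FPKM of pancreatic RNA together, or GD17.5 mouse 2 and Day 0 mouse 1 together, was chosen after seeing the data. So were the comparison of each mouse with the other two of its age and the r of residuals with Apob.

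Depth was estimated from 782 low genes, of whose low values 63.7% lay within 0.1 of a whole fragment number. The 134 genes used were chosen because over 80% of their values lay on such steps. Relative depth between libraries was 0.887 to 1.2. The estimate takes the full transcript length. Figures and counts used Python 3.11.15 with matplotlib 3.10.9, scipy 1.17.1, pandas 2.3.3 and numpy 2.4.6.

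Limits: 3 mice per age, 1 strain and 1 sex in bulk liver. Cell content, age and feeding change together, and messenger RNA says nothing of protein or bile acid amounts. FPKM without counts leaves the sampling error of each value an estimate.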

Additional observations from a re-analysis of the deposited data

How the results depend on the processing

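Of 119 member calls, 99 were kept in all 36 fits that left out 1 mouse and 20 were lost in at least 1, 95 were kept under all other limma settings, 93 under those and Dunnett's test, and 88 in all of these. Calls lost numbered 12 without the pancreas libraries, 12 with hepatocyte scaling, 6 with upper quartile scaling, 5 as TPM, 5 outside the red cell list, 4 without the filter, 1 with a pseudocount of 0.1 and 1 with the replicate numbers as a block. Dunnett's test, run for the 64 calls against Day 60, lost 6, those of Cyp7a1 at Days 0, 3 and 5, Akr1c6 and Akr1d1 at Day 5, and Amacr at Day 10. For each change below the cause was not tested.

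With Dunnett's test the count lower than Day 60 went from 9 to 8 at Day 0, from 8 to 7 at Day 3 and from 7 to 4 at Day 5. At Day 25 it went from 1 to 2 with hepatocyte scaling, and at Day 30 from 2 to 1 without the filter, with upper quartile scaling and without the pancreas libraries. Hepatocyte scaling gave 8 lower at GD17.5, 8 at Day 1, 9 at Day 3 and 8 at Day 5. It gave 9 at Day 10, 7 at Day 15 and 4 at Day 20. Upper quartile scaling gave 10 at GD17.5 and 9 at each of Days 1, 3 and 5. TPM gave 10 at GD17.5 and 6 at Day 5, and scaling outside the red cell list gave 5 at Day 5. The count that rose at birth went from 8 to 4 with hepatocyte scaling, from Day 0 to Day 1 from 3 to 5 as TPM, and from Day 1 to Day 3 from 2 to 1 with upper quartile scaling, as TPM and with hepatocyte scaling. From Day 3 to Day 5 it went from 1 to 2 with upper quartile scaling, as TPM, outside the red cell list and without the Xist and muscle libraries. From Day 5 to Day 10 it went from 1 to 4 with upper quartile scaling and to 0 with hepatocyte scaling. With upper quartile scaling and as TPM it went from 4 to 5 from Day 10 to Day 15. Under the same 2 settings it went from 2 to 3 from Day 20 to Day 25. Without the pancreas libraries it went from 2 to 1 from Day 20 to Day 25 and from 1 to 0 from Day 30 to Day 45.

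The count lower in Days 25 to 60 than in Days 10 to 20 went from 2 to 1, and that lower in Days 10 to 20 than in GD17.5 to Day 5 from 0 to 2, with hepatocyte scaling. The count lower in Days 25 to 60 than in GD17.5 to Day 5 went from 1 to 0 with upper quartile scaling. With hepatocyte scaling Amacr in Days 25 to 60 against Days 10 to 20 turned from -0.38 to 0.13, and in Days 10 to 20 against GD17.5 to Day 5 Cyp8b1 turned from 0.46 to -0.29 and Cyp39a1 from 0.13 to -0.57.

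With 1 mouse left out at a time, the count lower than Day 60 ran from 9 to 10 at GD17.5, 8 to 9 at Day 0, 6 to 7 at Day 1, 7 to 8 at Day 3, 5 to 6 at Day 10, 4 to 5 at Day 15, 3 to 3 at Day 20 and 1 to 1 at Day 25. At Day 5 it ran from 4 to 7, with 4 without Day 60 mouse 1 or mouse 2. At Day 30 it ran from 0 to 2, with 0 without Day 30 mouse 1 or Day 60 mouse 2 and 1 without Day 30 mouse 2 or Day 60 mouse 1. At Day 45 it ran from 0 to 1, with 1 without Day 60 mouse 3.

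The count that rose ran from 8 to 8 at birth, 3 to 4 from Day 0 to Day 1, 1 to 1 from Day 5 to Day 10, 2 to 3 from Day 15 to Day 20 and 1 to 1 from Day 25 to Day 30. From Day 1 to Day 3 it ran from 1 to 2, with 1 without Day 1 mouse 1 or mouse 3 or Day 3 mouse 2 or mouse 3. From Day 3 to Day 5 it ran from 0 to 2, with 0 without Day 5 mouse 2 and 2 without Day 0 mouse 1 or Day 1 mouse 2 or mouse 3. From Day 10 to Day 15 it ran from 2 to 4, with 2 without Day 10 mouse 2 or Day 15 mouse 2. From Day 20 to Day 25 it ran from 1 to 3, with 1 without Day 20 mouse 1 or mouse 2 or Day 25 mouse 2 or mouse 3. From Day 30 to Day 45 it ran from 0 to 2, with 0 without Day 30 mouse 1 or mouse 2 or Day 45 mouse 1 or mouse 2 and 2 without Day 45 mouse 3. From Day 45 to Day 60 it ran from 0 to 1, with 1 without Day 60 mouse 3. The stage counts ran from 5 to 5 higher and 2 to 3 lower for Days 25 to 60 against Days 10 to 20, 9 to 9 and 0 to 0 for Days 10 to 20 against GD17.5 to Day 5, and 9 to 9 and 1 to 1 for Days 25 to 60 against GD17.5 to Day 5.

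Mice with the same replicate number at different ages were paired as a block in 1 setting. Over 198 such pairs r of the residuals had a median of 0.126, and over 396 pairs with different numbers a median of -0.0476. With the block Amacr at Day 10 against Day 60 was not called (limma adjusted p = 0.0529), and Akr1d1 in Days 25 to 60 against Days 10 to 20 was called (limma adjusted p = 0.0279). Cyp8b1 from Day 10 to Day 15 (limma adjusted p = 0.0453) and Cyp7a1 from Day 25 to Day 30 (limma adjusted p = 0.0369) were also called. So were Cyp39a1 at GD17.5 (limma adjusted p = 0.039) and Cyp7a1 at Day 1 (limma adjusted p = 0.0342), both against Day 60. Depth limits Cyp7b1 most, at about 11.6 fragments in GD17.5 mouse 1.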
